A study of Danio rerio with 6 samples.

Results

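The enzymes described here make pyrimidine nucleotides and convert ribonucleotides into the building blocks of DNA. They are the products of 9 genes from a list of symbols (cad, dhodh, umps, ctps1a, rrm1, rrm2, tyms, dut and dtymk), and all 9 were found among the 21392 genes of the deposited matrix. The matrix gives translation efficiency, that is ribosome footprints (mRNA fragments shielded from nuclease by ribosomes) divided by mRNA for each gene, both as FPKM, in mycn mutant zebrafish embryos (2 Ribo-seq libraries) and in wild-type embryos of the AB strain (2 Ribo-seq libraries), all at 72 hpf (hours post fertilization). The series also has 1 RNA-seq sample of each genotype, and the question put to the matrix was whether mutation of mycn altered the footprints carried per mRNA. The labels name neither the mutant allele, nor its zygosity, nor the strain background of the mutants. Whole embryos were dissociated with trypsin, so each library mixes many cell types. A changed ratio within a type of cell and a changed share of that type cannot be told apart. Nothing in the labels says whether replicates were separate clutches, so p-values measure only the spread between these libraries, which may be technical. With 1 RNA-seq sample per genotype, both libraries of a genotype may share their mRNA value, and the spread between them would then leave out its error.

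Pyrimidines are built de novo as a ring that is then joined to ribose phosphate, giving UMP, from which UTP and CTP follow. Ribonucleotide reductase turns ribonucleotides into deoxyribonucleotides, and thymidylate is made from dUMP with a folate cofactor. Dividing cells need these products to copy DNA, and in mammals several of the genes, cad among them, are known targets of Myc transcription factors, the family to which mycn belongs.

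In mycn mutants, no difference from wild type in translation efficiency was resolved for any of the 9 enzymes. Of the 9, 5 were higher and 4 lower in mutants, with a median log2 fold of 0.12, beside 0.013 over all 17601 genes tested. The larger differences were between the enzymes themselves. Translation efficiency was above 10 for ctps1a and below 0.2 for rrm2 in every library, and the other 7 stayed between 0.3 and 0.9 in all 4 libraries. The labels do not state over which part of an mRNA the footprints and the mRNA reads were counted. Differences in level between genes, here and below, are thus differences of the deposited ratio and were not tested as differences in translation. The test was limma on log2(translation efficiency + 0.1), two-sided, with p-values adjusted over all tested genes by the Benjamini-Hochberg method; fold changes are on this scale, and the added 0.1 shrinks those of genes with small ratios. It called 0 of 9 enzymes at an adjusted p threshold of 0.05, beside 0% of all tested genes, and no enzyme had an unadjusted p under 0.05, as 2023 of all tested genes did.

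**Figure D1:**
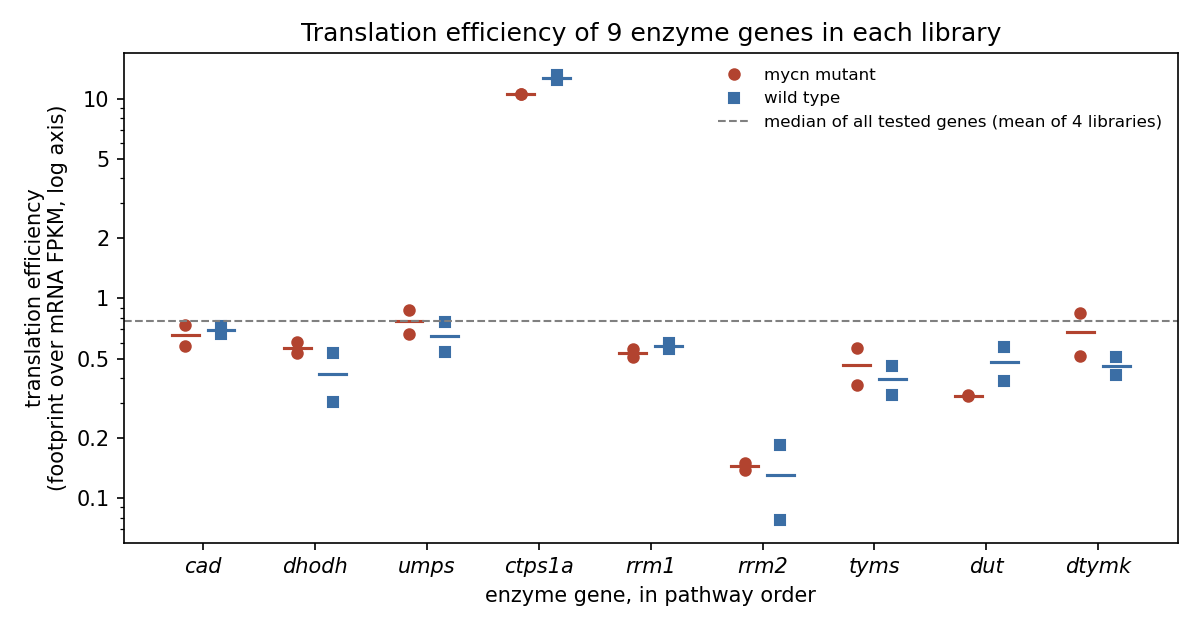
Translation efficiency (footprint FPKM over mRNA FPKM, log axis) of 9 enzyme genes in pathway order; red circles are the 2 mycn mutant libraries, blue squares the 2 wild-type libraries, and short lines the group means. Ctps1a lies above 10 and rrm2 below 0.2 in all 4 libraries, while 8 of the 9 genes lie on average below the median of all tested genes.

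The first steps of the pathway belong to cad, a single protein that carries carbamoyl-phosphate synthetase, aspartate transcarbamylase and dihydroorotase activities. Its translation efficiency was 0.736 and 0.579 in mutants, against 0.727 and 0.666 in wild type. The mutant values enclosed the wild-type values, and by limma the log2 fold was -0.080 (SE 0.211; adjusted p = 0.911), and it ran from -0.23 to 0.070 over the fits that left out a library. Dhodh, the mitochondrial enzyme that oxidizes dihydroorotate to orotate, was at 0.604 and 0.531 in mutants, against 0.536 and 0.303 in wild type. Only wild-type replicate 2 lay apart, and by limma the log2 fold was 0.40 (SE 0.300; adjusted p = 0.664), or 0.068 when it was left out. Umps, which converts orotate to UMP, was at 0.662 and 0.876 in mutants, against 0.762 and 0.539 in wild type. The groups overlapped; limma gave a log2 fold of 0.22 with SE 0.265 (adjusted p = 0.792), and of 0.00076 once wild-type replicate 2 was left out.

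Ctps1a encodes a CTP synthase, which aminates UTP to CTP. Its translation efficiency was 10.6 and 10.6 in mutants (mean 10.58 ± 0.0159, SD, n = 2) and 13.1 and 12.4 in wild type (mean 12.7 ± 0.499, SD, n = 2). Both mutant libraries were below both wild-type libraries, and it was the only enzyme whose difference between genotypes exceeded the difference between replicates in both groups. By limma it did not pass, with a log2 fold of -0.27 (SE 0.189, 95% interval -0.79 to 0.25, adjusted p = 0.645), and of -0.54 after quantile normalization, which also did not pass. Among all tested genes, 31.5% had a genotype difference above both replicate differences. Ctps1a ranked on average at percentile 98.8 of the tested genes within a library, and between 98.6 and 99.1 in the 4 libraries. None of its 4 values was shared with another gene, but a value can also be unshared where reads are few.

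The paralog ctps1b was far lower, at 0.736 and 0.603 in mutants, against 0.546 and 0.556 in wild type, with a mean percentile of 33.9. Ctps1a therefore exceeded ctps1b by 14.4-fold and 17.6-fold in mutants, against 24.0-fold and 22.3-fold in wild type. The ratio of the paralogs was lower in both mutant libraries, and an exact two-sided permutation test gave p = 0.333, the smallest that 2 against 2 libraries allow. The pair was compared after its values were seen. All 4 values of ctps1b were repeated in other genes, so the ratio of the paralogs may be coarse. The treatment of reads that match both paralogs is not stated in the labels, and a high ratio can come from many footprints or from little mRNA.

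Ribonucleotide reductase is built from a large subunit, encoded by rrm1, which holds the catalytic and regulatory sites, and a small subunit, encoded by rrm2, which provides the radical needed for catalysis. The translation efficiency of rrm1 was 0.561 and 0.510 in mutants, against 0.598 and 0.560 in wild type, with a fitted log2 fold of -0.096 and SE 0.187 (limma, adjusted p = 0.874), or -0.039 when mutant replicate 2 was left out. The groups met at about 0.56, and the 4 values spanned a narrow range. For rrm2 it was 0.151 and 0.139 in mutants, against 0.0776 and 0.184 in wild type, with a fitted log2 fold of 0.12 and SE 0.378 (limma, adjusted p = 0.924), or -0.21 when wild-type replicate 1 was left out and 0.46 when wild-type replicate 2 was. The wild-type values enclosed the mutant values, and the 2 wild-type libraries differed more from each other than the genotypes did. At a mean percentile of 1.05, rrm2 was among the lowest of all tested genes, whereas rrm1 was at percentile 28.7. Within a library rrm1 exceeded rrm2 by 3.72-fold and 3.67-fold in mutants, against 7.71-fold and 3.04-fold in wild type. Rrm2b, a form of the small subunit known in mammals for work outside S phase, was closer to rrm1, the ratio of rrm1 to rrm2b being 2.67 and 0.630 in mutants, against 1.15 and 1.36 in wild type. In the permutation test used for ctps1a and ctps1b, the ratios of rrm1 to rrm2 and to rrm2b did not reach the smallest p. With 2 against 2 libraries that smallest p is 0.333, so the test could not resolve a difference for any of these pairs. RefSeq's gene table (assembly GRCz12tu) lists rrm2 as an older name of both rrm2b and rrm2l; the matrix has a row for rrm2 and a separate one for rrm2b.

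The remaining enzymes lead to thymidine nucleotides. Dut, which hydrolyses dUTP to dUMP and so keeps uracil out of DNA, was at 0.324 and 0.328 in mutants, against 0.570 and 0.387 in wild type. Both mutant libraries were lower, but the wild-type libraries lay far apart, and limma put the log2 fold at -0.42 (95% interval -1.11 to 0.27, SE 0.252, adjusted p = 0.589), or at -0.19 when wild-type replicate 1 was left out and at -0.65 when wild-type replicate 2 was. Tyms, thymidylate synthase, which methylates dUMP to dTMP, was at 0.562 and 0.369 in mutants, against 0.461 and 0.329 in wild type. The groups overlapped. Limma gave tyms a log2 fold of 0.18 with SE 0.291 (adjusted p = 0.844), which turned to -0.067 when mutant replicate 1 was left out and to -0.011 when wild-type replicate 2 was. In human cells, thymidylate synthase is known to bind its own mRNA and repress its translation. Dtymk, which phosphorylates dTMP to dTDP, was at 0.514 and 0.843 in mutants, against 0.507 and 0.413 in wild type. Both mutant libraries were higher, replicate 1 by little, and limma put the log2 fold at 0.45 (95% interval -0.36 to 1.26, SE 0.294, adjusted p = 0.618), or at 0.14 when mutant replicate 2 was left out.

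The mutant libraries thus lay above the wild-type libraries without overlap for 1 of the 9 enzymes (dtymk), beside 23.1% of all tested genes, and below them for 2 of the 9 (ctps1a and dut), beside 21.6% of all tested genes. Neither count is therefore a result about the enzymes. The 95% intervals of all 9 log2 folds included 0 and together reached from -1.11 to 1.26, so the direction of each difference was not resolved. For 3 of the 9 enzymes the genotype difference was smaller than both differences between replicates, beside 34.6% of all tested genes. Replicate 1 exceeded replicate 2 for 8 of the 9 enzymes in wild type, all but rrm2, beside 49.5% of all tested genes. In mutants it did so for 5 of the 9. The median over the enzymes was 0.562 and 0.531 in the mutant libraries, against 0.570 and 0.413 in the wild-type libraries, so that wild-type replicate 2 was the lowest of the 4. With that library left out the median log2 fold of the enzymes was -0.011. It was -0.024 when wild-type replicate 1 was left out, -0.067 when mutant replicate 1 was and 0.070 when mutant replicate 2 was, so its sign turned in 3 of these 4 fits.

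**Figure D2:**
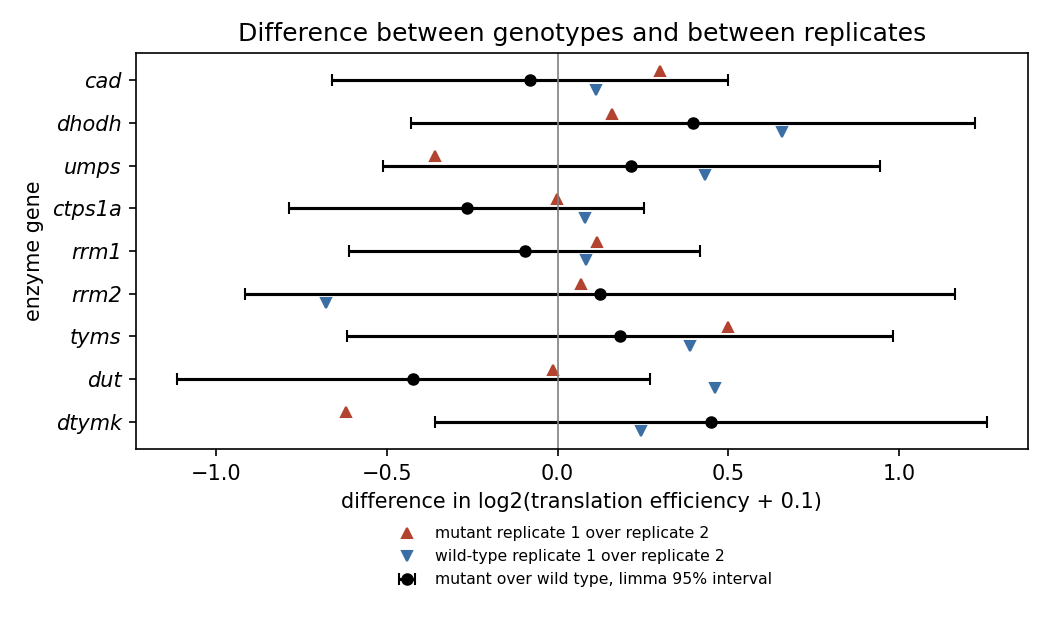
Differences in log2(translation efficiency + 0.1) for 9 enzyme genes; black circles with bars are mycn mutant over wild type with limma's 95% interval, red triangles mutant replicate 1 over replicate 2, and blue triangles wild-type replicate 1 over replicate 2. Every interval includes 0, and the blue triangles lie above 0 for 8 of the 9 genes.

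Ordered by their mean over the mutant libraries, the enzymes ran from rrm2 through dut, tyms, rrm1, dhodh, cad, dtymk and umps to ctps1a. In wild type the order was rrm2, tyms, dhodh, dtymk, dut, rrm1, umps, cad and ctps1a. In both genotypes rrm2 stood below, and ctps1a above, their neighbours without overlap of the libraries, as did dut below tyms in mutants. From tyms to umps in mutants and from tyms to cad in wild type each gene overlapped the next, so the order of such neighbours is not resolved. Genes further apart in a run did not always overlap. Rrm1 was at most 0.561 in mutants and 0.598 in wild type, whereas cad was at least 0.579 and 0.666. The enzymes had a median percentile of 28.7, beside 49.0 for all tested genes, and 8 of the 9 (88.9%) averaged below percentile 50, beside 51.2% of all tested genes. The exception was ctps1a.

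The depth behind a ratio is unknown, but some ratios show how coarse they are. Where 2 genes of a library have the same value to 9 significant digits, both are likely ratios of few reads. Of the 36 values of the enzymes, 21 were repeated in this way. Genes at 0 aside, wild-type replicate 1 had the smallest such share over all genes, 64.7%, and mutant replicate 1 the largest, 67.1%. The enzymes were thus repeated no more often than genes in general. For dhodh, umps and dtymk all 4 values were repeated, as for 38.4% of all tested genes. In RefSeq's table, dtymk overlaps atg4b and tyms overlaps acer2. The labels do not say how reads in such an overlap were counted or whether strand was used. Mycn itself was at 0.429 and 0.342 in mutants, against 0.446 and 0.302 in wild type; a ratio does not show whether its mRNA or protein was lost and so does not check the labels.

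Genes around the pathway were taken from 6 further lists with 106 tested genes. None of these was called by limma, and 8 (7.55%) had an unadjusted p under 0.05, beside 11.5% of all tested genes. Unless said otherwise, the genes named from each list are those with the smallest p in it. Among 14 genes of pyrimidine salvage and nucleotide kinases, 11 had a higher and 3 a lower value in mutants (median log2 fold 0.12, or 0.050 when wild-type replicate 1 was left out). Nme4, a mitochondrial nucleoside diphosphate kinase, was at 2.09 and 2.56 in mutants, against 0.721 and 1.47 in wild type (log2 fold 1.09, SE 0.390, limma adjusted p = 0.428, or 0.62 for the fold when wild-type replicate 1 was left out). The nucleoside diphosphate kinase nme3 was at 1.02 and 0.544 in mutants, against 1.12 and 1.12 in wild type, so mutant replicate 1 was close to wild type. Its log2 fold was -0.52 (SE 0.333), or -0.12 when mutant replicate 2 was left out. The uridine-cytidine kinase-like uckl1b had a log2 fold of 0.29 (SE 0.262) and ctps1b one of 0.24 (SE 0.199), which shrank to 0.045 for uckl1b and 0.11 for ctps1b when mutant replicate 1 was left out. All 4 values of nme4, uckl1b and ctps1b were repeated in other genes.

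Among 11 other genes that supply, salvage or clear deoxynucleotides, 3 had a higher and 8 a lower value in mutants; the median log2 fold was -0.18, and it was -0.054 without mutant replicate 1. Glrx2, a mitochondrial glutaredoxin, was at 0.455 and 0.420 in mutants, against 1.72 and 0.688 in wild type, where the libraries lay far apart. Nudt1, a hydrolase that clears oxidized nucleotides, had a log2 fold of -0.64 (SE 0.379), and the thioredoxin reductase txnrd3 one of -0.28 (SE 0.195). That of the deoxycytidine kinase dck was 0.90 (SE 0.559). Over the fits that left out a library, the log2 fold of glrx2 ran from -1.76 to -0.55, that of nudt1 from -1.06 to -0.22, that of txnrd3 from -0.39 to -0.18 and that of dck from 0.27 to 1.53. All 4 values of glrx2 and of dck were repeated in other genes.

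The 5 tested genes of pyrimidine breakdown had the largest median of the pathway lists, a log2 fold of 0.90, with 4 higher and 1 lower. It was 0.56 when wild-type replicate 2 was left out and 0.42 with a pseudocount of 1. Dpyda.1, a dihydropyrimidine dehydrogenase, which reduces uracil and thymine, was at 6.74 and 3.55 in mutants, against 1.54 and 1.39 in wild type (log2 fold 1.68, SE 0.374, limma adjusted p = 0.316). Dpys, the dihydropyrimidinase that opens the ring in the next step, was at 1.66 and 1.08 in mutants, against 0.509 and 0.690 in wild type (log2 fold 1.06, SE 0.301, limma adjusted p = 0.365). Without overlap of the libraries, 4 of the 5 genes, dpyda.1 and dpys among them, were higher in mutants and 1 was lower. Of all tested genes, 23.1% were higher and 21.6% lower in this way. Dpydb had a log2 fold of 0.51 (SE 0.195), and upb1, which completes the breakdown, was at 0.412 and 0.101 in mutants, against 0.784 and 0.501 in wild type (log2 fold -1.18, or -0.51 when mutant replicate 2 was left out). All 4 values were repeated in other genes for 3 of the 5, dpyda.1 and upb1 among them, as for 38.4% of all tested genes. The remaining gene of the list is dpyda.3, and the median log2 fold of 0.90 is its value. Dpyda.1, dpyda.3 and dpydb are paralogs and were all among the higher genes, so the 5 genes are not 5 separate steps. The treatment of reads that match paralogs is not stated in the labels. In mammals pyrimidine breakdown takes place mostly in the liver. Of 7 tested hepatocyte markers, 5 had a higher and 2 a lower value in mutants (median log2 fold 0.39, none called), ttr was listed at 0 in both mutant libraries, and the part of liver cells in the values of the breakdown genes was not tested.

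The folate cycle, which supplies the methyl donor of tyms, had 13 genes higher and 8 lower of 21; their median log2 fold was 0.078, and it ran from -0.077 to 0.034 when 1 library was left out. Ggh, which trims the glutamate tail of folates, was at 1.13 and 1.14 in mutants, against 0.518 and 0.562 in wild type (log2 fold 0.95, SE 0.183, limma adjusted p = 0.290). The cytosolic folate enzyme mthfd1a was at 1.03 and 0.966 in mutants, against 1.42 and 1.62 in wild type (log2 fold -0.56, SE 0.198, limma adjusted p = 0.428). Slc19a1, the reduced folate carrier, had a log2 fold of 0.58 (SE 0.226), and fpgs, which adds the glutamate tail that ggh removes, one of -0.47 (SE 0.315), or -0.10 when mutant replicate 2 was left out. Without overlap of the libraries, 2 of the 21 genes were higher and 6 lower in mutants. Of all tested genes, 23.1% were higher and 21.6% lower in this way. Ggh and slc19a1 were the 2 higher genes, and mthfd1a and fpgs were among the 6 lower. All 4 values of ggh were repeated in other genes.

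The lists most like the enzymes were de novo purine synthesis and DNA replication. Of 15 purine genes, 4 had a higher and 11 a lower value in mutants (median log2 fold -0.18). Without overlap of the libraries, 1 was higher and 8 were lower, beside 23.1% higher and 21.6% lower of all tested genes. GMP synthetase, gmps, was at 0.870 and 0.927 in mutants, against 1.61 and 1.57 in wild type (log2 fold -0.76, SE 0.189, limma adjusted p = 0.341). The median log2 fold of the purine genes was below 0 and that of the 9 enzymes above 0, a difference that was not tested. When 1 library was left out, the purine median ran from -0.21 to -0.14. That of the enzymes ran from -0.067 to 0.070, so its sign did not hold. Adssl, of the adenylosuccinate synthase family, had a log2 fold of 0.59 (SE 0.225), that of impdh1b, an IMP dehydrogenase, was -0.50 (SE 0.214), and that of pfas, an early enzyme of the pathway, was -0.55 (SE 0.244). In level, the purine genes had a median percentile of 58.9, against 28.7 for the 9 enzymes.

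The 40 genes of replication and proliferation had a median percentile of 28.2 and 32 of them averaged below percentile 50. In mutants 16 had a higher and 24 a lower value (median log2 fold -0.069, or -0.033 when mutant replicate 2 was left out). Without overlap of the libraries, 6 were higher and 6 lower, beside 23.1% higher and 21.6% lower of all tested genes. The log2 fold was 1.38 (SE 0.441) for the replication factor gins3, 0.62 (SE 0.204) for the origin licensing factor cdc6, -0.51 (SE 0.186) for rfc3 of the clamp loader and -0.49 (SE 0.209) for mcm4 of the replicative helicase. That of gins3 was 0.81 when wild-type replicate 2 was left out and 0.55 with a pseudocount of 1, and all 4 values of gins3 and of rfc3 were repeated in other genes. The genes of this list mark dividing cells, in which ribonucleotide reductase and thymidylate synthase act. The part of dividing cells in the values of the enzymes was not tested.

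**Figure D3:**
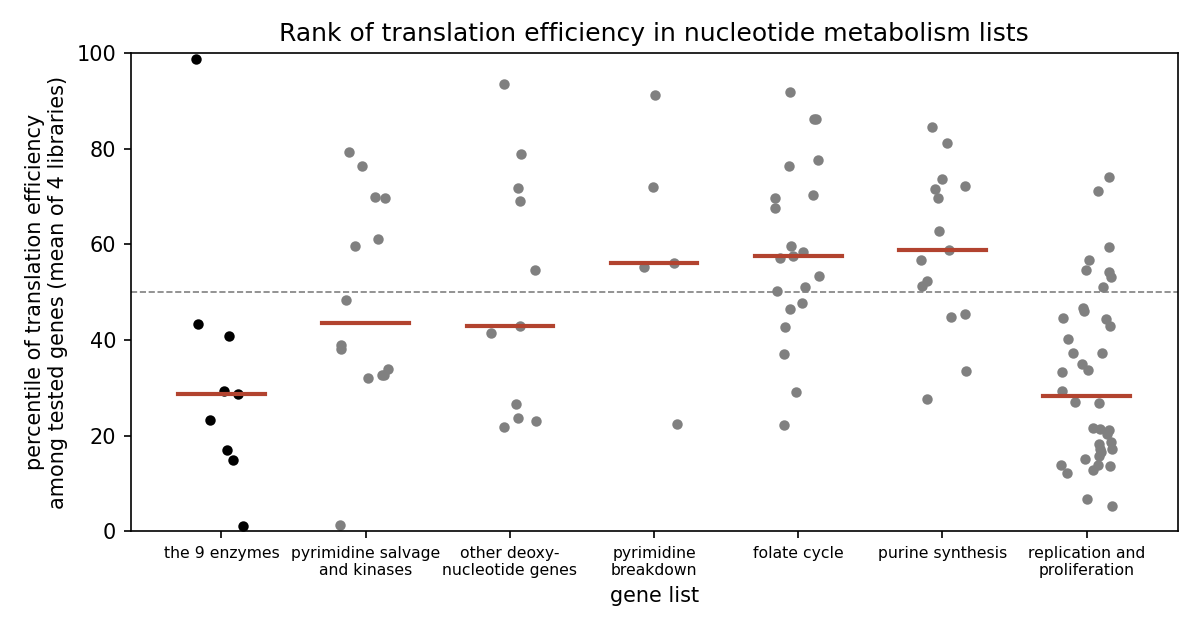
Percentile of translation efficiency among the tested genes (mean of 4 libraries) for the 9 enzymes and 6 further lists; each point is a gene and the red line the median of the list. The 9 enzymes have a median of 28.7 and the replication list one of 28.2, while the purine list has one of 58.9.

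Markers of 7 tissues were read beside these values, and 51 of the 57 listed markers were above 0 in all 4 libraries. None of the tested markers was called. Of 8 exocrine pancreas markers, 6 were higher without overlap (median log2 fold 1.56), and all 6 cartilage markers were lower without overlap (median -0.36), beside 23.1% higher and 21.6% lower of all tested genes. The 6 erythroid markers did not overlap either, with 3 higher and 3 lower, a median log2 fold of -0.19 and a median absolute log2 fold of 1.65; 5 had an unadjusted p under 0.05, and the lowest adjusted p was 0.101 (limma). Of 8 skeletal muscle markers, 6 were lower and 2 higher without overlap (median -0.076). Of 8 enterocyte markers, 4 were higher and 1 lower without overlap (median 0.13). Of 8 neuron markers, 3 were higher and 1 lower (median 0.11). An unadjusted p under 0.05 (limma) was found for 3 enterocyte, 5 exocrine pancreas, 1 cartilage, 0 skeletal muscle and 0 neuron markers, beside 11.5% of all tested genes. The part of these tissues in the values of the enzymes was not tested. A library listed between 5.86% and 9.98% of genes at 0, and the median over tested genes was 0.779 and 0.779 in the mutant libraries, against 0.762 and 0.765 in the wild-type libraries. FPKM values are relative to the total of a library, so these ratios cannot show a shift common to every gene.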

How the data were processed

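The authors deposited 1 ratio per gene and Ribo-seq library, its translation efficiency. The file headers name FPKM. Gene length cancels only if footprints and mRNA were divided by the same length, which the headers do not state. The labels do not state which RNA-seq sample served as denominator or whether an offset was added. The submitters' processing notes name the genome build GRCz11 and the tools STAR, featureCounts and limma, with no version. Symbols are those of the matrix; 8 of the 9 enzymes matched the RefSeq table by symbol. That table is of another assembly (GRCz12tu), so no coordinates are given, and sequences were not used here.

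Genes at 0 in any library (3791) were left out. The other 17601 were fitted with limma 3.58.1 in R 4.3.3 on log2(ratio + 0.1) with a trend in the empirical Bayes step, comparing mutant with wild type at 2 residual degrees of freedom per gene; all 9 enzymes passed the filter. Percentiles are ranks among tested genes within a library. The enzymes and lists were chosen with earlier results of these data known, so lists were described by counts and medians and given no test. All 9 enzymes, mycn and, from each other pathway list, the 4 tested genes with the smallest unadjusted p are named; 2 listed genes, 1 of them an enzyme of the list of 10, are not reported here and enter no count or median over a list. Alternatives were pseudocounts of 1 and 0.01, no filter, a minimum mean of 0.2, quantile normalization, median centring, no trend, genes without repeated values, a replicate block and leaving out each library.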

Additional observations from a re-analysis of the deposited data

How the results depend on the processing

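None of the 9 enzymes passed the threshold in any of the 13 alternatives (lowest adjusted p = 0.188, limma). Over all genes, the number past the threshold was 6 with a pseudocount of 1, 177 with no filter, 2 with a minimum mean of 0.2, 36 among genes with no repeated value and 0 in the other alternatives. The median log2 fold of the enzymes ran from -0.067 to 0.070 when 1 library was left out, and the number higher in mutants from 4 to 6. With a minimum mean of 0.2, which drops rrm2, 4 of 8 were higher. Among genes with no repeated value only ctps1a was left, at a log2 fold of -0.27, so 0 of 1 was higher. Its SE there was 0.076 (limma, unadjusted p = 0.021, adjusted p = 0.188), against 0.189 in the main fit (limma, unadjusted p = 0.230). The unadjusted p of ctps1a thus depended on which genes were fitted with it. With quantile normalization the log2 fold of ctps1a was -0.54, and with a pseudocount of 1 that of dut was -0.15. The pseudocount of 1 made the log2 fold over 1.5 times smaller for 32 of the 34 named genes. No filter, a minimum mean, no trend, genes without repeated values and a replicate block left each log2 fold unchanged. These alternatives could therefore not turn a direction, though they are counted among the values. Direction turned only when a library was left out, in 4 of 108 values of the enzymes and in 2 of 301 of the other named genes. For the enzymes these values fell in 3 of the 9 when a library was left out. Over the fits that left out a library the log2 fold ran from -0.23 to 0.070 for cad and from -0.21 to 0.46 for rrm2. It ran from -0.067 to 0.43 for tyms and from -0.17 to 0.27 for mycn. With a replicate block, 0 genes passed and 1920 had an unadjusted p under 0.05 (limma). The labels do not say that replicate numbers pair libraries, so the numbers were not taken as pairs. Deviations of same-numbered libraries from their group means had a Pearson correlation of 0.0097 across 17601 genes, which are not independent. This single correlation cannot exclude pairing. A single library left out of a group leaves a lone sample that is assumed to vary like the other group. Ratios without counts limit the precision that can be stated.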

Other observations

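Among the listed genes left out of the test, tymp, thymidine phosphorylase, which degrades thymidine, was listed at 0 in both wild-type libraries and at 9.39 and 11.5 in the mutant libraries. The depth behind these values is unknown, and the difference was not tested. The deoxyguanosine kinase dguok was at 0.176 and 0 in mutants, against 0 and 0.495 in wild type. The uridine-cytidine kinase-like uckl1a was at 0.404 and 0 in mutants, against 0.942 and 0.426 in wild type. The mitochondrial folate enzyme mthfd2l was at 0 and 0.334 in mutants, against 0 and 0.562 in wild type.

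The nucleoside diphosphate kinase nme2a lay near rrm2 in level, at a mean percentile of 1.28. It was chosen after its values were seen, as the other listed pathway gene lowest in rank.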
